A study of Mus musculus with 6 samples.

Results

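The BCL2 family sets whether a cell under stress keeps its mitochondrial outer membrane intact, and 10 of its genes are described here in 2 populations of mouse small-intestinal crypt cells. The genes are Bcl2, Bcl2l1 and Mcl1, which encode pro-survival proteins, Bax, Bak1 and Bok, which encode pore-forming proteins, Bid, Bad and Bcl2l11, which encode BH3-only proteins, and Bcl2l15, which encodes a little-studied relative. They were taken by name from a table of 23565 genes, and all 10 were present. RNA sequencing counts were available for 6 libraries. Hopx-CreER cells, in 3 libraries, were tdTomato-positive cells of HopXCreER::Rosa26LSL-tdTomato mice, in which a tamoxifen-inducible Cre at the Hopx locus switches on the red reporter. Lgr5-CreER cells, also in 3 libraries, carried both eGFP and tdTomato and came from Lgr5eGFP-IRES-CreER::Rosa26LSL-tdTomato mice, in which the Lgr5 locus drives both eGFP and Cre. All mice received 1 mg of tamoxifen, crypts were taken 16 hours later, and 3 mice per genotype were used according to the design text, which states no age. Since each genotype had its own gate, genotype and gate cannot be told apart.

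In this family, pro-survival proteins bind and restrain the pore formers BAX and BAK, and BH3-only proteins release that restraint by binding the pro-survival proteins or by activating the pore formers directly. Once pores form, cytochrome c leaves the mitochondria and, with APAF1, activates caspase-9 and then the executioner caspases. In the intestinal crypt the pathway is best known from the death of crypt-base cells after irradiation, and MCL1 is known to be needed for survival of the mouse intestinal epithelium. Much of the regulation of these proteins acts after transcription, by cleavage of BID, phosphorylation of BAD and rapid turnover of MCL1, none of which RNA counts measure.

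The libraries held 10839306 to 14570555 counts each, and 1 count equalled 0.0669 to 0.0928 CPM, the usual depth-scaled count, here with TMM factors. Library numbers follow the columns and serve as names. Lgr5-CreER libraries 2 and 3 have the same number in their column names, and which mouse gave which library is not labelled, so p-values reflect library spread that may be technical in part. These libraries were the closest pair within a group, with an SD of 0.27 for log2 differences against 0.33 to 0.59 for the other pairs, but differed by more than sampling noise. Hopx-CreER library 3 stood farthest from its group, at 0.57 and 0.59, and its column name carries an added tag that the labels do not explain. Among cell type markers, Hopx-CreER cells were lower for all 10 genes of the Lgr5 stem cell list (summed level 3448 to 5277 CPM, against 10958 to 11415 CPM in Lgr5-CreER cells). Of the tested markers, 8 of 9 Paneth, 7 of 7 goblet, 9 of 9 enteroendocrine, 6 of 8 tuft and 8 of 9 enterocyte genes rose in Hopx-CreER cells, with summed levels of 14860 to 32323, 6854 to 10411, 3323 to 8714, 178 to 832 and 1862 to 3610 CPM, against 1654 to 3241, 1989 to 2631, 181 to 296, 96.0 to 139.9 and 889 to 1081 CPM in Lgr5-CreER cells. These marker counts are of genes at an edgeR adjusted p under 0.05, beside 9.45% higher and 3.3% lower among all tested genes. All 7 epithelial identity genes were present, at 15529 to 17038 CPM in sum in Hopx-CreER cells and 10329 to 11096 CPM in Lgr5-CreER cells. Of 8 stromal and endothelial markers, 5 were in the count table, 2 of them with 0 counts throughout. Those present summed to at most 3.55 CPM in Hopx-CreER libraries and 1.55 CPM in Lgr5-CreER libraries. In bulk RNA, fewer cells of a type and less RNA per cell cannot be told apart, here and below, and the part of this mix of cell types in any value below was not tested.

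Bad was the single member that passed the test, and it was higher in Hopx-CreER cells by 1.66-fold. Of the other members, 8 did not pass the test and Bcl2l15 had too few counts to be tested. Of the 9 tested members, 1 was thus higher and 0 were lower by edgeR's quasi-likelihood test at an adjusted p under 0.05, beside 9.45% higher and 3.3% lower among all 12439 genes tested, so the family's share was near that of all genes. Calls across all genes were higher in 74.1% of cases, a share that was 56.3% when libraries were scaled by totals and 50.2% with GC offsets. At an unadjusted p under 0.05, 2 members passed, Bad and Bok, where 27.3% of all tested genes did. DESeq2 tested 10 members and also called only Bad, beside 1413 higher and 670 lower among the 14604 genes it tested. The 3 libraries of a group lay wholly above or below those of the other for Bad and Bok, 2 of 10 members, while 18.8% of tested genes were without overlap and higher and 16.2% were without overlap and lower, 34.9% in all. On the log2 scale of Hopx-CreER over Lgr5-CreER, the median change was 0.05 over the 9 tested members and -0.03 over all tested genes, and the median absolute change was 0.31 in each. The median of the members was below 0 when libraries were scaled by their totals (-0.06), which moved the median of all genes by -0.11, and with offsets for GC content (-0.20), and ran from -0.30 without Hopx-CreER library 2 to 0.10 without Lgr5-CreER library 1.

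**Figure D1:**
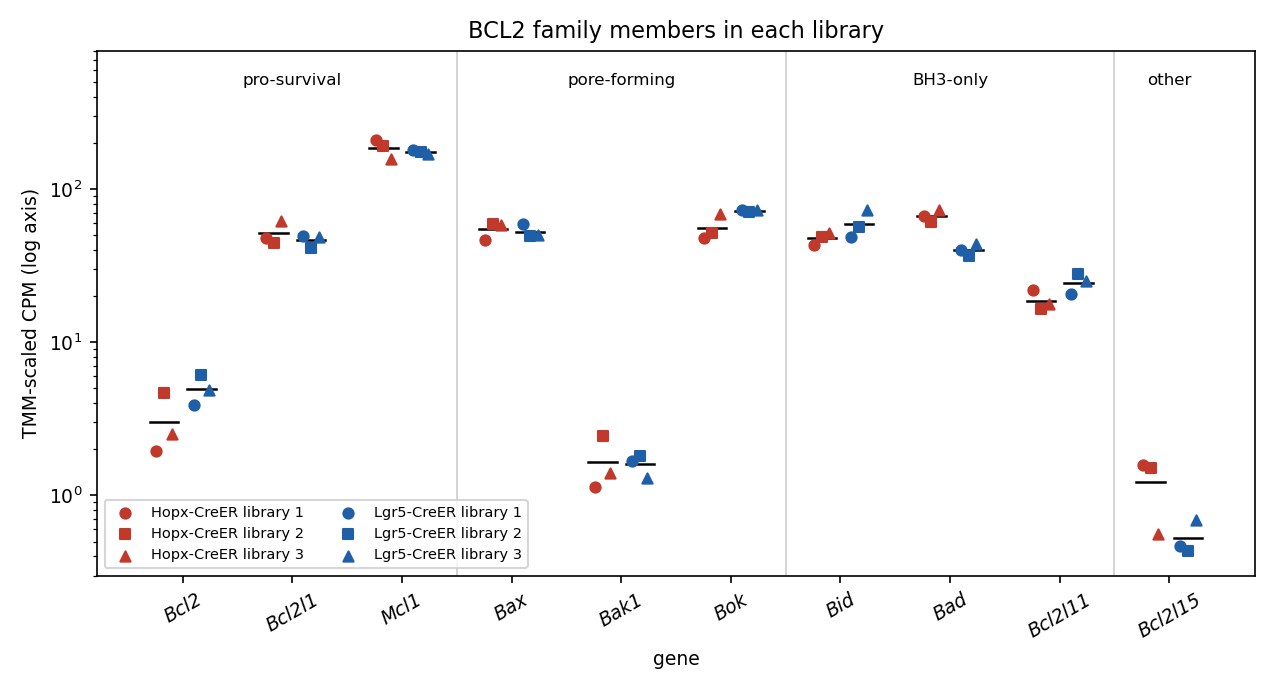
TMM-scaled CPM (log axis) of the 10 members in each of the 6 libraries, Hopx-CreER in red and Lgr5-CreER in blue, with a point shape for each library number and a black line at the mean of a group. Mcl1 was the most abundant member by CPM, Bcl2, Bak1 and Bcl2l15 lay under 7 CPM throughout, and for Bad the 3 Hopx-CreER libraries (60.7 to 72.8 CPM) lay above the 3 Lgr5-CreER libraries (36.5 to 44.1 CPM).

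The upstream windows of Bad, the member that passed the test, are shown together with those of Bax and Bok, the most abundant pore formers, which did not pass. Each is the 250 bases before an annotated start (RefSeq, GRCm38.p6), 5′ to 3′ on the gene's strand. Capitals mark any match, on either strand, to the GC box GGGCGG, the CCAAT box CCAAT, the TATA box TATAAA, the E-box CACGTG, the FOXO site GTAAACA, the TCF/LEF site CTTTGAT, the CRE TGACGTCA or a p53 half-site. Which of the annotated starts was used in these cells was not measured.
Bad, first start, chr19:6941611-6941860, plus strand: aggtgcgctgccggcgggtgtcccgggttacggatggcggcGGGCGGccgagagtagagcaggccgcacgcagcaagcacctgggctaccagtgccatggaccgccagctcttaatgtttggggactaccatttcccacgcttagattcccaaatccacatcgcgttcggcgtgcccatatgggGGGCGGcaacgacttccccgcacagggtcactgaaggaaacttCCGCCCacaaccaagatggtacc
Bad, second start, chr19:6942312-6942561, plus strand: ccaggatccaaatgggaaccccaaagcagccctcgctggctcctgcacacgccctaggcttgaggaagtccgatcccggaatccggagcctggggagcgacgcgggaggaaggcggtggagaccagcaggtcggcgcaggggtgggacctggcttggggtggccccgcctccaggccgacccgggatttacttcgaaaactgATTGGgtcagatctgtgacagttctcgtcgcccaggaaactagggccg
Bok, chr1:93685325-93685574, plus strand: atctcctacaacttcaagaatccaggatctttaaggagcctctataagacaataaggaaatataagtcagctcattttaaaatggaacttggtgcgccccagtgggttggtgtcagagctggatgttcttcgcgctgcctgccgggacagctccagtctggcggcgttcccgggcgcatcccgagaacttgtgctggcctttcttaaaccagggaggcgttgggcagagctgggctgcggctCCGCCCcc
Bax, chr7:45466899-45467148, minus strand: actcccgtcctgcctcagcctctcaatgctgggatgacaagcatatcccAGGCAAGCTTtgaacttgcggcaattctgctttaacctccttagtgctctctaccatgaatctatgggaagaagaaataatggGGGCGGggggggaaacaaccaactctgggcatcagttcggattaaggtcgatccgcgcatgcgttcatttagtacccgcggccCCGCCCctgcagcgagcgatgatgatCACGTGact
The first Bad window held 3 GC boxes and no CCAAT box, while the second held 1 CCAAT box and no GC box. The Bok window held 1 GC box close to the start, and the Bax window held 2 GC boxes, 1 E-box and 1 p53 half-site. All 10 members matched the table, with 14 windows in all, of which 8 held a GC box, 3 a CCAAT box, and 1 each an E-box, a FOXO site (the first start of Bcl2l11) and a p53 half-site (Bax). Over all 32841 windows of this length, 32.7% held a GC box, 33.9% a CCAAT box, 6.02% an E-box, 3.17% a FOXO site and 7.13% a p53 half-site, and the TATA box (12.4%), TCF/LEF site (3.21%) and CRE (1.55%) matched no window of a member. A match is a description of letters, and binding was not measured.

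Among the pro-survival genes, Mcl1 carried most of the RNA and none of the 3 passed the test. Mcl1 (ENSMUSG00000038612.16; GRCm38 chr3:95658788-95663176, plus strand) encodes a short-lived protein that restrains BAK and BAX. It had 209, 192 and 158 CPM in Hopx-CreER libraries 1, 2 and 3, against 181, 174 and 170.5 CPM in Lgr5-CreER libraries 1, 2 and 3. The groups overlapped, and the Hopx-CreER libraries were the more spread (186 ± 25.8 against 175 ± 5.29 CPM, SD, n = 3 each). The log2 fold change was 0.09 ± 0.12 (SE; 95% interval -0.19 to 0.36; edgeR adjusted p 0.679), and -0.03 with library totals alone.

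Bcl2l1 (ENSMUSG00000007659.18; chr2:152780668-152831728, minus strand) encodes BCL-XL, and its shorter splice form, which counts per gene do not part from the long form, promotes death. It had 48.1, 44.5 and 61.7 CPM in the Hopx-CreER libraries, against 49.5, 41.5 and 48.4 CPM in the Lgr5-CreER libraries. Only Hopx-CreER library 3 lay outside the range of the Lgr5-CreER libraries on the high side. The log2 fold change was 0.14 ± 0.16 (SE; 95% interval -0.22 to 0.51; edgeR adjusted p 0.609), and -0.02 without Hopx-CreER library 3.

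Bcl2 (ENSMUSG00000057329.7; chr1:106538178-106714274, minus strand), the founding member of the family, was scarce in both populations. It had 1.96, 4.65 and 2.5 CPM in the Hopx-CreER libraries, against 3.88, 6.13 and 4.89 CPM in the Lgr5-CreER libraries, from 26, 55 and 27 counts against 58, 71 and 71 counts. Hopx-CreER library 2 lay within the Lgr5-CreER range and the other two lay below it. Bcl2 had a log2 fold change of -0.71 ± 0.40 (SE; 95% interval -1.61 to 0.19; edgeR adjusted p 0.292), and it ran from -1.15 without Hopx-CreER library 2 to -0.46 without Hopx-CreER library 1. Lymphocytes are known for high Bcl2, and 8 leukocyte markers summed to 2.71 to 4.23 CPM in Hopx-CreER libraries, against 6.16 to 10.05 CPM in Lgr5-CreER libraries. Of the 2 tested markers of that list, Lck (2.39 ± 0.27 against 6.66 ± 1.65 CPM, SD, n = 3 each) was lower in Hopx-CreER cells, at an edgeR adjusted p of 0.0175. Ms4a1 (0.03 ± 0.04 against 1.11 ± 0.27 CPM) passed the count filter only through its level in Lgr5-CreER cells, so its test is given no weight here. Lck was called in 2 of the 6 fits that left out a library. The other 6 markers were too scarce to be tested, and some of them ran the other way. Ptprc averaged 0.50 CPM in Hopx-CreER cells, with 1.18 CPM in library 2, and 0.12 CPM in Lgr5-CreER cells. Cd3e averaged 0.35 and 0.05 CPM in these groups, Cd8a 0.18 and 0.06 CPM, and Cd3e, Cd3g, Cd8a, Cd2 and Cd79a were under 1 CPM in each library. With no count filter the median log2 fold change of the 8 markers was 1.15, so the list did not move one way, and the part of these cells in the Bcl2 values was not tested. Bcl2 exons share 558 bases with an annotated antisense RNA, D630008O14Rik.

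Among the pore formers, Bax and Bok were abundant and Bak1 was scarce. Bax (ENSMUSG00000003873.11; chr7:45461697-45466898, minus strand), which moves from the cytosol to the mitochondria when activated, had 46.6, 58.9 and 58.4 CPM in the Hopx-CreER libraries, against 58.8, 49.2 and 50.03 CPM in the Lgr5-CreER libraries. Those ranges coincided almost fully (54.6 ± 6.98 against 52.7 ± 5.29 CPM, SD, n = 3 each). The log2 fold change of Bax was 0.05 ± 0.15 (SE; 95% interval -0.29 to 0.39; edgeR adjusted p 0.848), and it was -0.06 when libraries were scaled by totals and -0.19 under GC offsets. Bax exons share 192 bases with Gm45808 on the same strand.

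Bok (ENSMUSG00000026278.14; chr1:93685660-93695764, plus strand) encodes a relative of BAX and BAK that the pro-survival proteins restrain poorly. It had 48.0, 51.7 and 68.3 CPM in the Hopx-CreER libraries, against 72.7, 71.2 and 73.1 CPM in the Lgr5-CreER libraries. Each Hopx-CreER library lay below each Lgr5-CreER library, with libraries 1 and 2 well below and library 3 close to them. Bok had a log2 fold change of -0.37 ± 0.15 (SE; 95% interval -0.71 to -0.03), with an edgeR p of 0.0377 and an adjusted p of 0.153. Without Hopx-CreER library 3 it was -0.55 (adjusted p 0.0101), with GC offsets -0.65 (0.00848) and by limma-voom with quality weights -0.49 (0.0225), so that Bok was called lower under these settings and not in the main test. Its adjusted p lay between 0.00848 and 0.364 in the 19 alternatives. The longest Bok transcript had a GC content of 61.0%, against a median of 50.01% over tested genes.

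Bak1 (ENSMUSG00000057789.13; chr17:27019810-27029009, minus strand), whose protein sits in the mitochondrial membrane of healthy cells, had 1.13, 2.45 and 1.39 CPM in the Hopx-CreER libraries, against 1.67, 1.81 and 1.31 CPM in the Lgr5-CreER libraries. The groups overlapped, with 15 to 29 counts and 19 to 25 counts a library. The log2 fold change of Bak1 was 0.05 ± 0.43 (SE; edgeR adjusted p 0.948), and its 95% interval of -0.92 to 1.03 does not exclude a change of nearly 2-fold either way. Its exons overlap those of Ggnbp1 on the opposite strand.

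Among the BH3-only genes, Bad was higher and Bid and Bcl2l11 had lower means without passing the test. Bad (ENSMUSG00000024959.13; chr19:6941861-6951899, plus strand) encodes a sensitizer that binds BCL-XL and BCL2 and is held inactive by phosphorylation downstream of growth factors. It had 66.8, 60.7 and 72.8 CPM in the Hopx-CreER libraries, against 40.2, 36.5 and 44.1 CPM in the Lgr5-CreER libraries, from 718 to 887 counts against 423 to 641 counts. No library of a group came near the other group (66.8 ± 6.06 against 40.3 ± 3.79 CPM, SD, n = 3 each). Bad had a log2 fold change of 0.73 ± 0.14 (SE; 95% interval 0.41 to 1.04; edgeR adjusted p 0.00984). The call held in 5 of the 6 fits that left out a library and was lost without Lgr5-CreER library 2 (log2 fold change 0.66, adjusted p 0.0601), and the change was 0.47 (adjusted p 0.0342) with GC offsets. Summing the same-numbered Lgr5-CreER columns kept the call (adjusted p 0.0393). The longest Bad transcript had a GC content of 57.1%.

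Setting Bad against other members of the same library takes the scaling between libraries out of the comparison. The ratio of Bad to Bax, in CPM, was 1.44, 1.03 and 1.25 in the Hopx-CreER libraries, against 0.68, 0.74 and 0.88 in the Lgr5-CreER libraries. The ratio of Bad to Bcl2l1, whose protein BAD binds, was 1.39, 1.36 and 1.18, against 0.81, 0.88 and 0.91. These ratios hold the same Bad values as above and are no separate evidence. Of Bad's annotated exon bases, 524 (20.5%) overlap exons of Gpr137 on the opposite strand, and without strand in the counts reads there cannot be assigned. Gpr137 stood at 18.1 ± 1.45 CPM in Hopx-CreER cells and 12.1 ± 0.89 CPM in Lgr5-CreER cells (SD, n = 3 each; log2 fold change 0.58, edgeR adjusted p 0.0944), and its part in the Bad values was not tested.

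Bid (ENSMUSG00000004446.12; chr6:120891930-120916853, minus strand), whose protein links death receptors to mitochondria once caspase-8 cuts it, had 42.9, 48.7 and 52.04 CPM in the Hopx-CreER libraries, against 48.9, 56.6 and 72.5 CPM in the Lgr5-CreER libraries. Lgr5-CreER library 3 was the high one, and the groups otherwise overlapped. The log2 fold change of Bid was -0.31 ± 0.17 (SE; 95% interval -0.70 to 0.08; edgeR adjusted p 0.281), and -0.14 without Lgr5-CreER library 3. Its exons share 628 bases with the neighbouring Bcl2l13 on the opposite strand.

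Bcl2l11 (ENSMUSG00000027381.16; chr2:128126038-128162547, plus strand) encodes BIM, an activator that binds each pro-survival protein. It had 22.0, 16.4 and 17.7 CPM in the Hopx-CreER libraries, against 20.5, 27.7 and 25.1 CPM in the Lgr5-CreER libraries. Hopx-CreER library 1 lay above the lowest Lgr5-CreER library, and the other Hopx-CreER libraries lay below all 3. Bcl2l11 had a log2 fold change of -0.39 ± 0.20 (SE; 95% interval -0.85 to 0.08; edgeR adjusted p 0.262).

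Bcl2l15 (ENSMUSG00000044165.12; chr3:103832601-103854618, plus strand) was near the limit of detection and was removed by the count filter. It had 21, 18 and 6 counts in the Hopx-CreER libraries, against 7, 5 and 10 counts in the Lgr5-CreER libraries, or 1.58, 1.52 and 0.56 CPM against 0.47, 0.43 and 0.69 CPM. Hopx-CreER libraries 1 and 2 were high and library 3 lay within the Lgr5-CreER range. With no filter the log2 fold change of Bcl2l15 was 1.18 ± 0.65 (SE; 95% interval -0.15 to 2.52; edgeR adjusted p 0.327 over 21122 genes). Its exons share 569 bases with Gm43064 on the same strand.

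**Figure D2:**
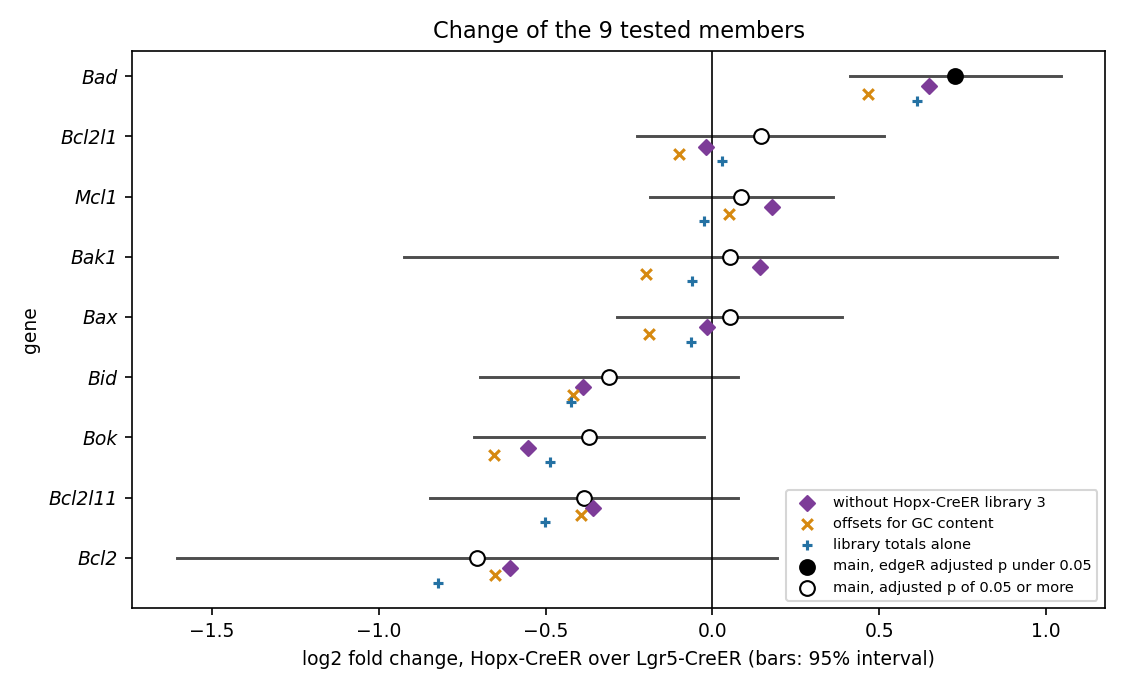
Log2 ratio of Hopx-CreER over Lgr5-CreER levels for the 9 tested members (circles, filled where the edgeR adjusted p was under 0.05) with 95% intervals, and the same without Hopx-CreER library 3 (diamonds), with GC offsets (crosses) and with library totals alone (plus signs). Bad lies at 0.73 and stays above 0 in each of these fits, Bok lies at -0.37 and moves to -0.55 and -0.65, and the intervals of the other members include 0.

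Levels were compared between members per kilobase of annotated exon, and by that length Mcl1 led in all 6 libraries. In Hopx-CreER cells the order was Mcl1 (54.4 ± 7.54 CPM per kb, SD, n = 3), Bax (34.7 ± 4.43), Bok (30.4 ± 5.88), Bad (26.1 ± 2.37), Bid (13.5 ± 1.30), Bcl2l1 (11.2 ± 1.98) and Bcl2l11 (2.33 ± 0.36), with Bak1, Bcl2l15 and Bcl2 at 0.69, 0.45 and 0.33 CPM per kb. In Lgr5-CreER cells it was Mcl1 (51.3 ± 1.55 CPM per kb), Bok (39.3 ± 0.55), Bax (33.4 ± 3.36), Bid (16.7 ± 3.40), Bad (15.8 ± 1.48), Bcl2l1 (10.1 ± 0.94) and Bcl2l11 (3.05 ± 0.45), with Bak1, Bcl2 and Bcl2l15 at 0.66, 0.54 and 0.20 CPM per kb. In Hopx-CreER cells the ranges over libraries overlapped between Bax and Bok, Bok and Bad, Bid and Bcl2l1, Bak1 and Bcl2l15, and Bcl2l15 and Bcl2, although Bid was above Bcl2l1 within each of the 3 libraries. In Lgr5-CreER cells the ranges overlapped between Bid and Bad and between Bak1 and Bcl2, although Bak1 was above Bcl2 within each of the 3 libraries. The order depends on the length used, since the transcript forms present are not known. With the longest transcript in place of all exons, Mcl1 kept the highest mean in both groups but did not lead in each library. In Hopx-CreER library 3 Mcl1 stood at 46.2 CPM per kb, below Bax (53.1), Bad (47.5) and Bok (46.5). In Lgr5-CreER library 1 Bax (53.4) stood above Mcl1 (52.9). By the longest transcript, the means of Bad and Bcl2l1 in Hopx-CreER cells (43.6 and 20.0 CPM per kb) stood above those of Bok and Bid. In Hopx-CreER library 2, however, Bcl2l1 (17.3) lay below Bid (20.2). In Lgr5-CreER cells Bad (26.3 CPM per kb) then stood above Bid (24.6) and Bcl2 (0.69) above Bak1 (0.67).

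By role, pore-forming genes held 33.1%, 38.5% and 41.5% of the summed CPM per kb of the 10 members in the Hopx-CreER libraries, against 44.6%, 42.8% and 41.4% in the Lgr5-CreER libraries. BH3-only genes held 24.2%, 22.9% and 25.2%, against 18.4%, 20.4% and 23.4%, and pro-survival genes held 42.3%, 38.4% and 33.2%, against 36.9%, 36.7% and 35.0%. With all exons as the length these shares overlapped between the groups for each role. With the longest transcript the pore-forming share was 34.0%, 39.4% and 41.1% in the Hopx-CreER libraries, against 45.6%, 43.7% and 41.8% in the Lgr5-CreER libraries, without overlap, so that the overlap depends on the length used. The sum itself was 169 to 180.2 CPM per kb in Hopx-CreER libraries and 165 to 174 CPM per kb in Lgr5-CreER libraries. The ratio of the 3 pore-forming to the 3 pro-survival genes, per kb, was 0.78, 1.00 and 1.25 in the Hopx-CreER libraries, against 1.21, 1.16 and 1.18 in the Lgr5-CreER libraries, so the Hopx-CreER libraries spread wider than the Lgr5-CreER libraries. With the longest transcript it was 0.94, 1.21 and 1.42, against 1.42, 1.38 and 1.38. Mcl1 made up 85.1%, 84.6% and 77.1% of the pro-survival sum in the Hopx-CreER libraries, against 82.5%, 84.0% and 81.8% in the Lgr5-CreER libraries, again with overlap. With the longest transcript Mcl1 made up less, 76.3%, 75.7% and 65.5%, against 72.7%, 75.0% and 71.9%, also with overlap. The ratio of Bok to Bax, per kb, was 0.88, 0.75 and 1.00 in the Hopx-CreER libraries, against 1.06, 1.24 and 1.25 in the Lgr5-CreER libraries, without overlap.

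**Figure D3:**
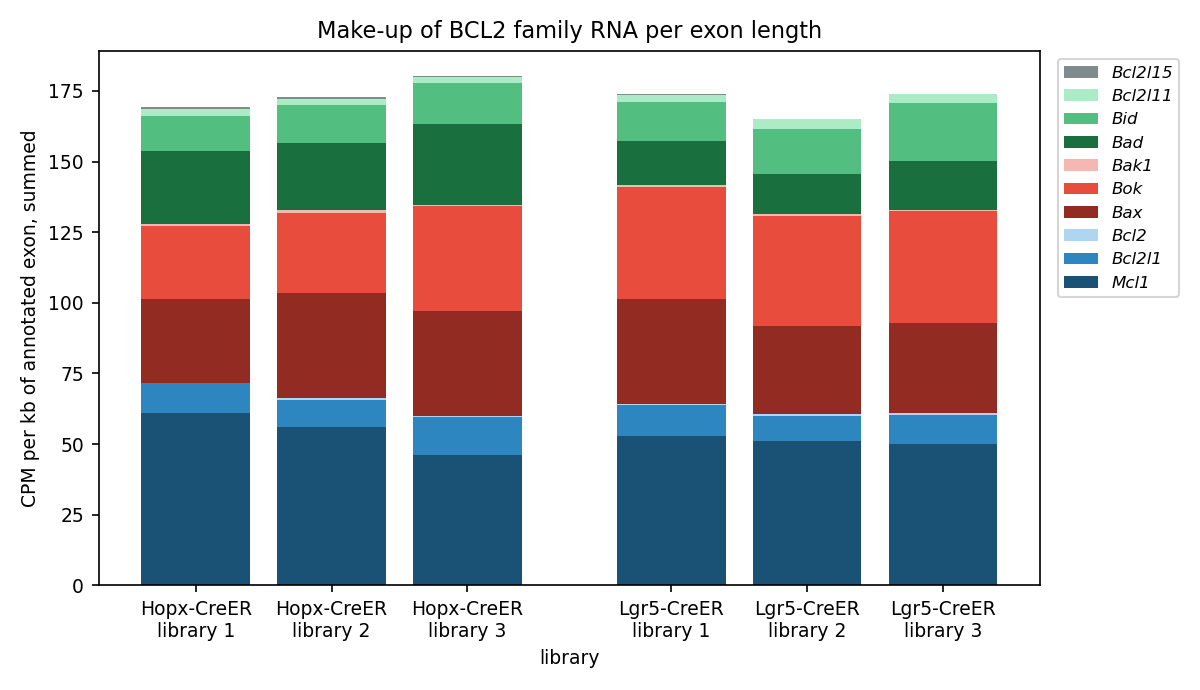
CPM per kb of annotated exon of the 10 members, stacked in each library, with pro-survival genes in blue, pore-forming genes in red, BH3-only genes in green and Bcl2l15 in grey. The 6 totals lie between 165 and 180.2 CPM per kb, Mcl1 is the largest part of each, and Bad (dark green) takes 23.7 to 28.5 CPM per kb in Hopx-CreER libraries and 14.3 to 17.2 CPM per kb in Lgr5-CreER libraries.

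Among 15 other genes of the family, 10 were tested, 1 was higher in Hopx-CreER cells and 0 were lower, beside 9.45% and 3.3% of all tested genes. Bnip3, which encodes a mitophagy receptor with a BH3-like stretch, averaged 4.34 ± 1.60 CPM in Hopx-CreER cells and 1.28 ± 0.26 CPM in Lgr5-CreER cells (SD, n = 3 each), a log2 change of 1.75 ± 0.40 (SE; edgeR adjusted p 0.0215). Its call held in 2 of the 6 fits that left out a library, with adjusted p of 0.0594 to 0.0918 in the other four, and summing the same-numbered Lgr5-CreER columns also ended it (0.0682). At an unadjusted p under 0.05, 2 genes of this list passed, beside 27.3% of all tested genes, and DESeq2 and limma-voom also called only Bnip3. Over all genes, DESeq2 called 1413 higher and 670 lower among 14604, and limma-voom 1130 and 410 among 12439. Under GC offsets Bmf, a BH3-only gene named after its values were seen, was called lower. The median log2 fold change of the list was 0.06, and -0.06 when libraries were scaled by totals. Bcl2l14 and Bcl2l13, the most abundant ones that did not pass, had log2 fold changes of 0.04 ± 0.12 and 0.08 ± 0.12 (edgeR adjusted p 0.866 and 0.702). Bbc3 and Pmaip1, which encode the p53-induced BH3-only proteins PUMA and NOXA and are named after their values were seen, parted the Hopx-CreER libraries in opposite ways. Bbc3 had 5.80, 5.75 and 13.8 CPM in the Hopx-CreER libraries, against 5.62, 5.87 and 3.85 CPM in the Lgr5-CreER libraries. Pmaip1 had 21.5, 15.9 and 7.42 CPM, against 11.2, 8.81 and 7.85 CPM, and passed the test only without Hopx-CreER library 3. Bcl2a1a and Bcl2a1b, blood-cell pro-survival genes, had 0 counts in each library, which allows up to 0.201 to 0.278 CPM (3 counts), and Bcl2a1d had 1 count in all.

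Other genes of the mitochondrial pathway, which act with the pore formers or after them, were higher in Hopx-CreER cells in 4 of 15 cases and lower in 0, beside 9.45% higher and 3.3% lower among all tested genes. Casp6, an effector caspase gene, stood at 293 ± 51.6 CPM in Hopx-CreER cells and 162 ± 24.5 CPM in Lgr5-CreER cells (SD, n = 3 each), a log2 change of 0.86 ± 0.16 (SE; edgeR adjusted p 0.00848). Cycs, which encodes cytochrome c of the respiratory chain and the apoptosome, rose by 0.63 ± 0.12 (308 ± 34.5 against 198 ± 13.3 CPM; edgeR adjusted p 0.00851). Mtch2, a mitochondrial receptor for cleaved BID, rose by 0.46 ± 0.12 (edgeR adjusted p 0.0405), and Vdac2, an outer membrane channel that binds BAK, by 0.37 ± 0.10 (0.0451). The last 2 calls were the least stable, holding in 7 and 4 of 19 alternatives and ending when the same-numbered columns were summed (adjusted p 0.0925 and 0.113), while Casp6 held in each fit that left out a library. The higher count of this list was 2 without Hopx-CreER library 2, Hopx-CreER library 3 or the first Lgr5-CreER library, and 1 when Lgr5-CreER library 2 was omitted, where Cycs also missed (adjusted p 0.0515). Vdac1 and Vdac3 did not pass, at log2 fold changes of 0.10 ± 0.10 and 0.25 ± 0.09 (edgeR adjusted p 0.538 and 0.12). Apaf1, named after its values were seen, had 22.7, 9.98 and 13.4 CPM against 25.2, 24.5 and 27.4 CPM, at an edgeR adjusted p of 0.131. Without Hopx-CreER library 1 Apaf1 was called lower. The median log2 fold change of the list was 0.10, and -0.01 when libraries were scaled by totals. At an unadjusted p under 0.05 the list had 8 genes, beside 27.3% of all tested genes. DESeq2 called 5 of the list higher and 0 lower, beside 1413 higher and 670 lower among the 14604 genes it tested. With limma-voom 5 were also higher and 0 lower, beside 1130 higher and 410 lower among 12439 genes. Both added Dffb, a nuclease gene named after its values were seen.

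Inhibitors of apoptosis gave 0 calls among 9 tested genes by edgeR, by DESeq2 and by limma-voom. By edgeR, 9.45% of all tested genes were called higher and 3.3% lower. DESeq2 called 1413 higher and 670 lower among 14604 genes, and limma-voom 1130 and 410 among 12439. At an unadjusted edgeR p under 0.05 the list had 0 genes, beside 27.3% of all tested genes, and its median log2 fold change was 0.08. That median turned to -0.08 when Hopx-CreER library 1 was omitted, to -0.04 when library 2 of that group was, and to -0.03 when libraries were scaled by totals. Birc5, a mitotic protein of this family, had a log2 fold change of 0.18 ± 0.11 and Birc3, a ubiquitin ligase, of 0.08 ± 0.18 (SE; edgeR adjusted p 0.309 and 0.793).

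In the death receptor pathway, 2 of 10 tested genes were higher and 1 was lower in Hopx-CreER cells, beside 9.45% and 3.3% of all tested genes, with a median log2 fold change of 0.16 (0.02 to 0.28 over the alternatives). Fas, a death receptor, averaged 8.41 ± 1.25 CPM in Hopx-CreER cells and 2.55 ± 1.73 CPM in Lgr5-CreER cells (SD, n = 3 each), a log2 change of 1.71 ± 0.45 (SE; edgeR adjusted p 0.0361). Tradd, an adaptor of TNF receptor 1, rose by 0.71 ± 0.13 (105 ± 10.85 against 64.1 ± 5.13 CPM; edgeR adjusted p 0.00747) and kept its call in each fit that left out a library. Tnfsf10, which encodes the ligand TRAIL, fell by 1.36 ± 0.28 (27.1 ± 9.99 against 69.6 ± 17.3 CPM; edgeR adjusted p 0.0142). The Fas call was lost without Hopx-CreER library 1 or 2 or Lgr5-CreER library 1 or 2 (adjusted p 0.0564 to 0.133), and the Tnfsf10 call without Hopx-CreER library 2 or Lgr5-CreER library 2 or 3 (adjusted p 0.0522 to 0.0673) or with the same-numbered columns summed (0.0654). Casp8, the caspase that cuts BID, did not pass, at -0.14 ± 0.12 (edgeR adjusted p 0.467), nor did Ripk3, a kinase of necroptosis, at 0.30 ± 0.12 (0.136).

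Of 11 p53 pathway genes, 2 were higher and 1 was lower in Hopx-CreER cells, beside 9.45% and 3.3% of all tested genes. The median log2 fold change was -0.22, and -0.06 without Hopx-CreER library 3. Cdkn1a, the p21 inhibitor of cyclin-dependent kinases, averaged 143 ± 37.3 CPM in Hopx-CreER cells and 22.8 ± 2.34 CPM in Lgr5-CreER cells (SD, n = 3 each), a log2 change of 2.65 ± 0.21 (SE; edgeR adjusted p 0.000374), and passed in all 19 alternatives. Perp, a desmosome protein induced by p53, rose by 0.46 ± 0.11 (edgeR adjusted p 0.0216), while Aen, an exonuclease induced by p53, fell by 0.53 ± 0.12 (edgeR adjusted p 0.0203). Without an Lgr5-CreER library, whichever was left out, neither Perp nor Aen passed, nor did Perp without Hopx-CreER library 2 or Aen without Hopx-CreER library 1. Both calls also ended when the same-numbered columns were summed (adjusted p 0.0670 and 0.0803). Trp53 itself had a log2 fold change of -0.22 ± 0.11 (edgeR adjusted p 0.238) and was called lower under GC offsets. Bax, a known p53 target in other settings, did not pass, with the values given above.

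Among 14 tested genes whose products act on MCL1, BAD or BIM protein, 2 were higher and 0 lower in Hopx-CreER cells, beside 9.45% and 3.3% of all tested genes, and 3 had an unadjusted p under 0.05, beside 27.3%. The median log2 fold change was -0.16 (-0.31 to -0.09 over the alternatives). DESeq2 called 1 gene of this list lower, Gsk3b, a kinase that marks MCL1 for degradation, named after its values were seen. Among all 14604 genes that DESeq2 tested, 670 were called lower. The genes called higher were Pim2 and Pim3, kinases that can phosphorylate BAD. Pim2 averaged 38.9 ± 14.7 CPM in Hopx-CreER cells and 13.9 ± 1.25 CPM in Lgr5-CreER cells (SD, n = 3 each), a log2 change of 1.48 ± 0.26 (SE; edgeR adjusted p 0.00718), and passed in all 19 alternatives. Pim3 rose by 0.56 ± 0.14 (279.9 ± 52.4 against 189 ± 12.8 CPM; edgeR adjusted p 0.0339) and passed in 8 of 19, among the fits without a library only in that without Hopx-CreER library 2, with 0.30 (adjusted p 0.149) under GC offsets and an adjusted p of 0.124 with the same-numbered columns summed. Ywhaz, a 14-3-3 protein that holds phosphorylated BAD, had a log2 fold change of -0.25 ± 0.15 and Ppp2ca, a phosphatase subunit, of -0.08 ± 0.10 (edgeR adjusted p 0.343 and 0.635).

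**Figure D4:**
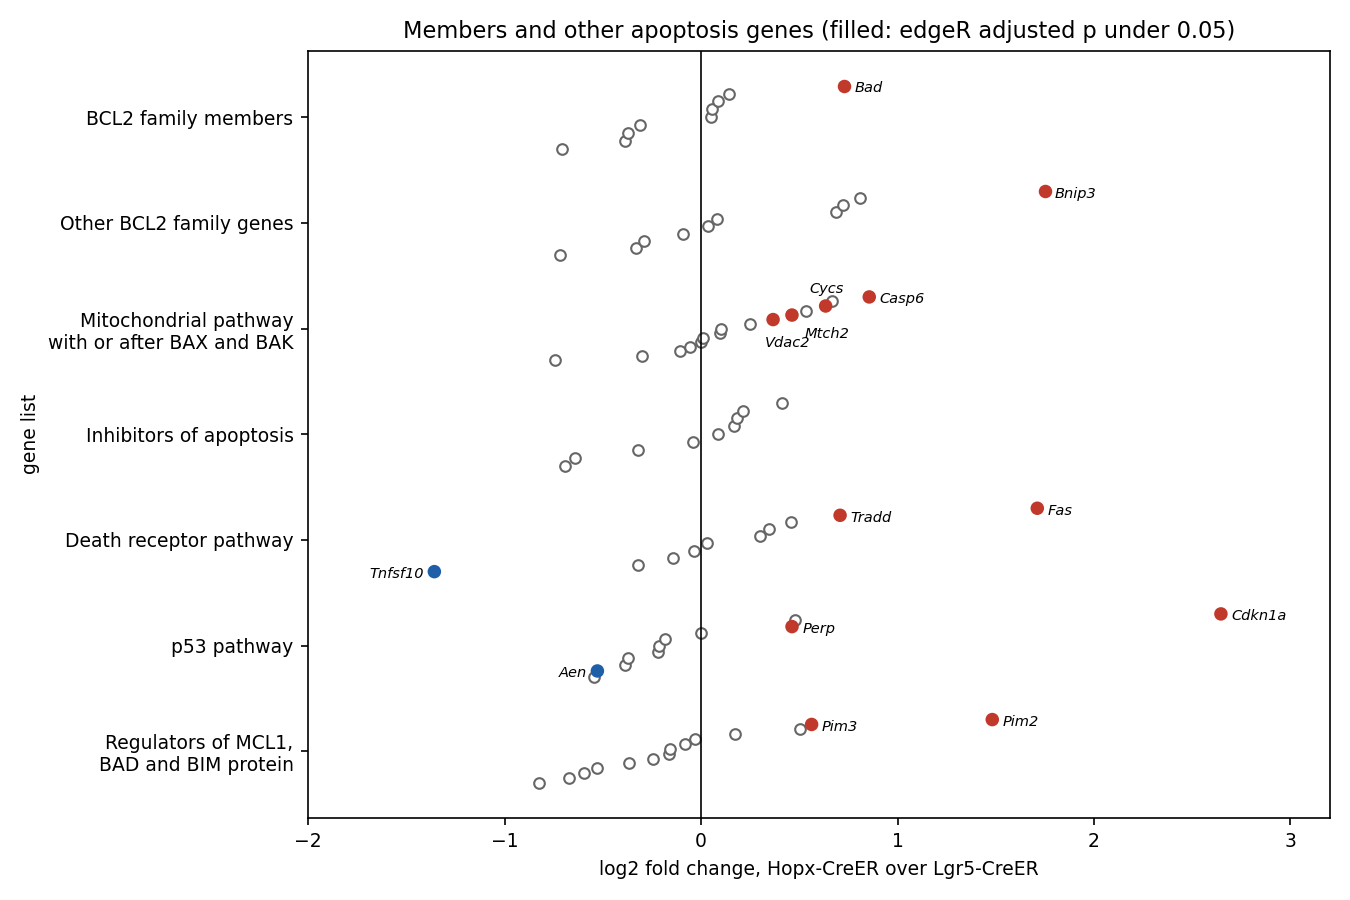
Log2 ratio of Hopx-CreER over Lgr5-CreER levels for the tested genes of the 7 apoptosis lists, with each gene a point and the genes at an edgeR adjusted p under 0.05 filled and named (red higher, blue lower in Hopx-CreER cells). The filled points range from -1.36 for Tnfsf10 to 2.65 for Cdkn1a, and most genes of each list lie between -1 and 1 and did not pass.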

How the data were processed

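The authors deposited raw gene counts of the 6 libraries in 1 table keyed by mouse Ensembl identifiers. Kallisto, edgeR and GRCh38, a human build, are named per the submitters' processing notes without a role, and that build does not match mouse identifiers. The sources used here do not give the counting step or its strand setting. Per the labels' protocols, SMART-Seq cDNA was tagmented by Nextera XT, which does not mark the strand, and reads carry no molecular identifiers, so counting limits cover counting error only.

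Columns name the sort (Tom or DP) and were mapped to groups by it. Symbols and positions came from GENCODE M21 (GRCm38) by unversioned identifier (23479 of 23565 matched). Groups were compared by edgeR 4.0.16 (R 4.3.3): TMM factors, the default filterByExpr filter, a quasi-likelihood F-test, and p-values adjusted (Benjamini-Hochberg) across 12439 tested genes, called at 0.05. SEs came from the F statistic and 95% intervals from its degrees of freedom. SDs are between libraries. The procedure was tested on simulated counts.

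Members and lists were chosen with earlier results of these data known. All members are named; from the other lists, called genes and up to 2 of the most abundant uncalled genes are named, and any further gene is marked as picked on its values. From the lists, 1 pathway gene and 1 leukocyte marker are not reported here and were left out of the counts, medians and sums. The 19 alternatives included DESeq2 1.42.0, limma-voom (limma 3.58.1), other scalings, filters and thresholds, GC offsets (spline of 5 degrees of freedom), summing the 2 columns that share a number, and leaving out each library. Chosen after seeing the data was that sum without Hopx-CreER library 3.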

Additional observations from a re-analysis of the deposited data

How the results depend on the processing

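Of the 9 tested members, Bad was higher in every alternative and called in 17 of 19 (adjusted p 0.000369 to 0.0601), and Bcl2, Bid, Bcl2l11 and Bok were lower in every alternative, the first 3 without a call. No paired analysis was possible because the count columns carry no replicate number from the labels. Leaving out a library gave 606 to 1275 genes higher and 117 to 593 lower in Hopx-CreER cells, 0 to 1 members higher and 0 to 1 lower. Genes lower in Hopx-CreER cells numbered 410 as reported, 729 when scaled by library totals, 670 by DESeq2 and 1037 with GC offsets, and genes higher numbered 1176, so that the higher share of calls was 74.1%, or 56.3% when scaled by library totals and 50.2% under GC offsets. A threshold of 0.01 gave 555 higher and 99 lower, a log2 fold change of at least 1 gave 770 and 169 with 0 members higher, and summing the columns that share a number gave 659 and 131. With quality weights, with GC offsets, and with the columns summed and Hopx-CreER library 3 left out, 1 member (Bok) was lower. Signs turned for 4 uncalled members. Scaled by library totals, the log2 fold change was -0.026 for Mcl1, -0.063 for Bax and -0.060 for Bak1. Under GC offsets it was -0.10 for Bcl2l1, -0.19 for Bax and -0.20 for Bak1, and by limma-voom -0.0073 for Bak1. With the columns summed and Hopx-CreER library 3 left out it was -0.033 for Bcl2l1 and -0.039 for Bax. Leaving out each library gave -0.020 to 0.24 for Bcl2l1, -0.015 to 0.17 for Bax and -0.34 to 0.28 for Bak1. The causes were not tested. Depth limits Bcl2, Bak1 and Bcl2l15, which had 5 to 71 counts a library.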

Other observations

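Some apoptosis genes were far from their group in Hopx-CreER library 3 alone, and are named here after their values were seen. Birc2, a ubiquitin ligase that inhibits death signalling, had 16.95, 12.1 and 2.32 CPM in Hopx-CreER libraries 1, 2 and 3, against 12.4, 17.3 and 21.3 CPM in the Lgr5-CreER libraries. Ripk1, a kinase downstream of TNF receptor 1, had 48.1, 39.8 and 20.8 CPM, against 43.2, 51.0 and 42.0 CPM. Mdm2, the ubiquitin ligase of p53, had 32.4, 25.6 and 12.3 CPM, against 25.2, 34.4 and 31.9 CPM. Bbc3, which was high in that library, had a transcript GC content of 65.2%, while Birc2, Ripk1 and Mdm2, which were low, had 43.05%, 45.1% and 46.2%, beside a median of 50.01% over tested genes. Not all genes of the lists ran this way. Cycs (40.8%), Mtch2 (42.1%) and Vdac2 (47.2%) were higher in library 3 than in the other Hopx-CreER libraries. The part of GC content in these values was not tested.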
